A study of Oryza sativa with 6 samples.

Results

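Growth-regulating factors (GRFs) are a small family of plant transcription factors, and the genes GRF1 to GRF10 of rice were followed here at the feeding site of the Asian rice gall midge. Members were taken as all probe sets of genes that carry the symbol or synonym GRF1 to GRF10 (leading Os dropped) in the probe annotation and the rice gene table. Of the 10 names, 8 were matched, to 8 genes with 9 probe sets of the 57381 on the Affymetrix Rice Genome Array. GRF2 and GRF9 are not analysed here, and GRF4 also carries the older synonym grf2 and GRF5 the synonym grf3. All 9 probe sets passed the filter on low signal, which left 51532 probe sets to test. A value is the log2 of the signal that RMA summarised over the probes of a probe set, so a difference of 1 is a 2-fold change.

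All samples came from the rice line RP2068-18-3-5 (RP), which is resistant and answers the avirulent midge biotype GMB1 with a hypersensitive response. Both groups had the same genotype and the same tray, soil and humidity chamber treatment, and at an age of 15 days 3 trays were given 25 female and 10 male GMB1 (infested, RP-I) and 3 trays none (un-infested, RP-UI). A stem piece of 1 cm with the meristematic zone was cut at the feeding site, or the corresponding site, at time points of 24, 48 and 72 h from infestation, where 24 h stands for the moment when maggots were found to be established, and these 3 are joined for each tray on 1 array. A value therefore covers a pool of plants and times, the tray is the replicate (n = 3 per group), and 1 variety was used, so neither the time course nor a susceptible host is part of the comparison.

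GRF proteins bind DNA through a WRC domain and bind co-activators, the GRF-interacting factors (GIFs), through a QLQ domain. They are known for keeping cells of young leaves and stems in division. The microRNA miR396 cleaves most GRF transcripts, so their level is low where cells have stopped dividing. In rice, GRF1 was found as a gibberellin-induced gene of the growing internode, GRF4 is known for large grains and nitrogen use, GRF6 for panicle branching, and GRF8 for its link to planthopper resistance.

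All 8 GRF genes had a lower mean in infested than in un-infested tissue. The 9 log2 fold changes (RP-I minus RP-UI) ran from -1.50 for GRF7 to -0.35 for GRF6, with a median of -0.96, and over all probe sets tested the median was 0.01. A lower mean was found in 9 of 9 GRF probe sets, against 48.6% of all probe sets tested. The groups did not overlap, with each RP-I array below each RP-UI array, in 6 of the 9, which stand for GRF4, GRF5, GRF7, GRF8 and GRF10 (2 probe sets), against 9.73% of all probe sets (9.12% were the other way, with each RP-I array above). RP-I 3 stood nearer to RP-UI 3 (correlation over probe sets 0.968) than to RP-I 1 and RP-I 2 (0.961 and 0.954), and without it all 9 GRF probe sets still had the lower mean. In tissue samples such as these, fewer cells of a type and less transcript per cell cannot be told apart.

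**Figure D1:**
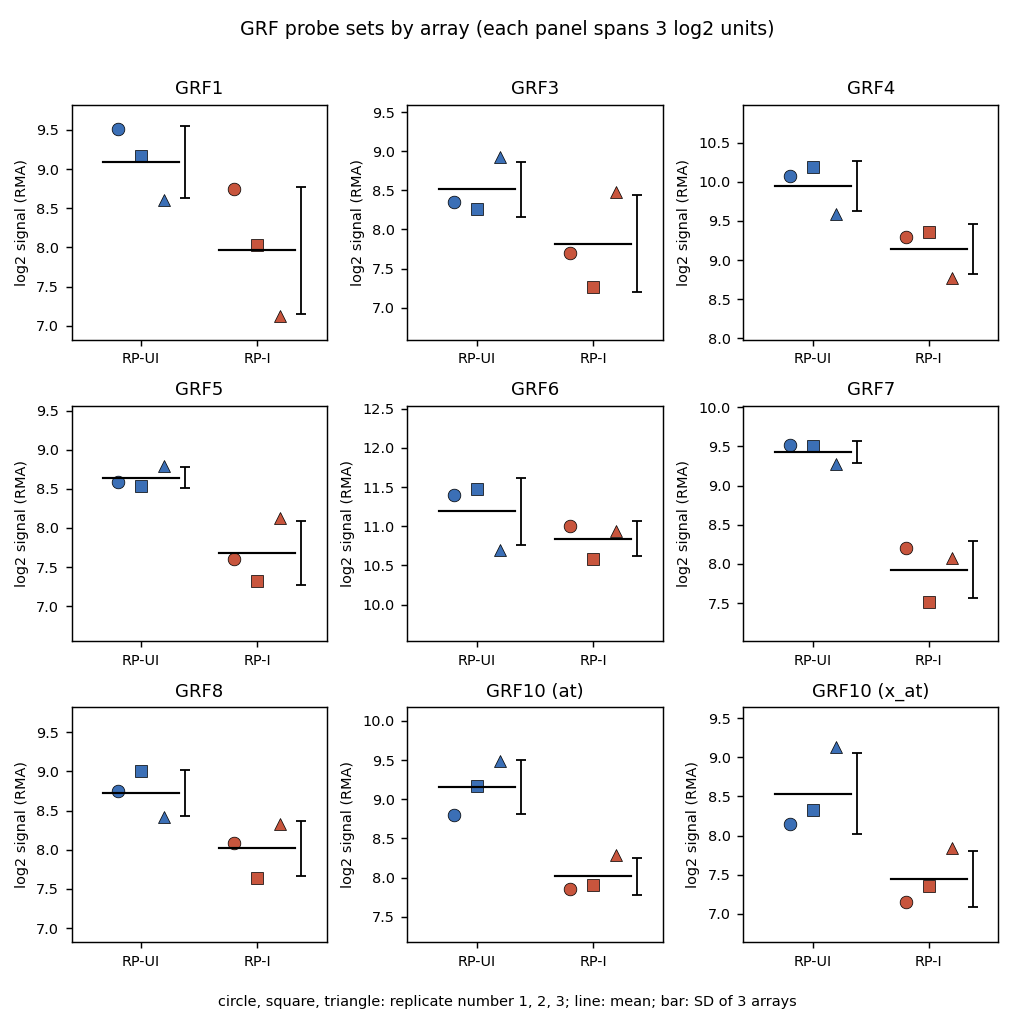
Log2 signal of each GRF probe set on the 6 arrays, by group. Lines are means, bars the SD of 3 arrays, and symbols mark the replicate number; panels share a span of 3 log2 units but not a level, since levels of different probe sets are not comparable. GRF7 has the widest gap between the groups (1.07), and the groups overlap in GRF1, GRF3 and GRF6.

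None of the 9 reached an adjusted p under 0.05 in limma's moderated test without a block (0 of 9, with 7 of 9 at an unadjusted p of 0.05 or under), while 0.328% of all probe sets tested were called lower and 0.563% were called in either direction. The lowest adjusted p was 0.0502 for GRF7. Arrays of the 2 groups with the same replicate number were positively correlated in their deviations from the group means (0.521, 0.308 and 0.624 for numbers 1, 2 and 3). Unlike numbers 1 and 2 were nearly as close as number 2 to itself (0.295 and 0.244), and those with number 3 were below 0. Once that number entered the fit as a block 6 of 9 fell, those of GRF1, GRF4, GRF5, GRF7 and both of GRF10 (adjusted p from 0.0181 to 0.0302), against 4.44% of all probe sets called lower and 8.5% called in either direction. At an unadjusted p of 0.05 or under the share of all probe sets was 7.65% lower and 6.58% higher. With a 2-fold change besides, the threshold of the study's methods, 4 of 9 passed (GRF1, GRF7 and both of GRF10) against 2.9% of all probe sets lower and 2.66% higher.

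**Figure D2:**
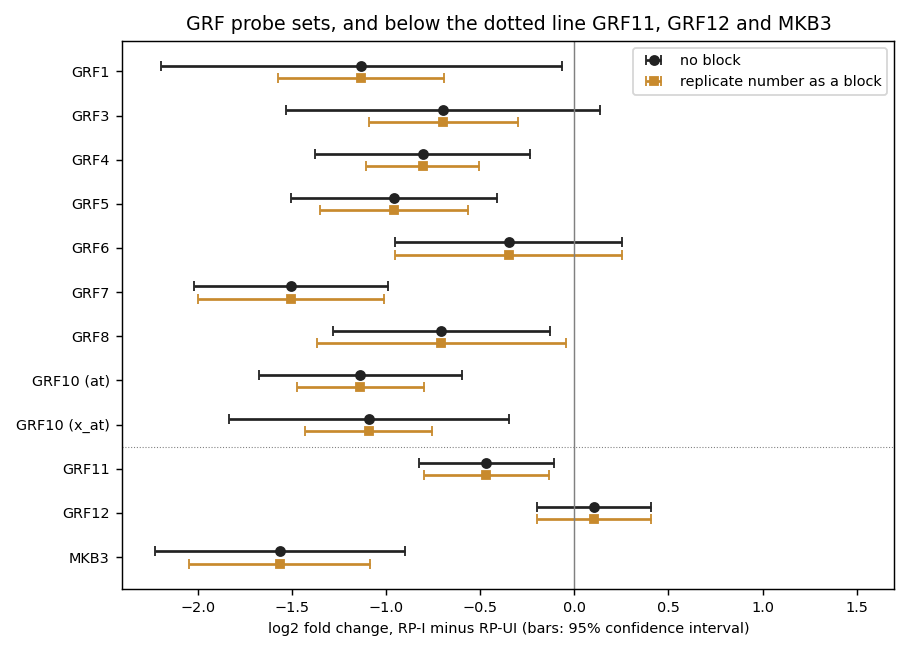
Log2 fold change of each GRF probe set with its 95% confidence interval, without a block (circles) and blocked on the replicate number (squares). Without the block 7 of the 9 GRF intervals lie below 0, the exceptions being GRF3 and GRF6, and for GRF6 the interval includes 0 in both fits.

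GRF7 (LOC9268363), known in rice for plant architecture, had the lowest fold change among the members. Its log2 signals were 9.52, 9.50 and 9.27 on RP-UI 1 to 3 and 8.20, 7.51 and 8.08 on RP-I 1 to 3. The RP-UI arrays lay close together and the RP-I arrays all lay more than 1 log2 unit below the lowest of them. The mean went from 9.43 ± 0.14 to 7.93 ± 0.37 (SD, n = 3), a log2 fold change of -1.50 ± 0.21 (SE, limma adjusted p = 0.0502, or 0.0208 blocked). As a ratio the mean was 2.84-fold lower, with a 95% interval from 1.98 to 4.06. Only 1.12% of all probe sets tested had a lower fold change.

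GRF10 (LOC4330314) has been reported in rice, with GRF3, to repress a KNOX homeobox gene. Its first probe set read 8.80, 9.17 and 9.49 on RP-UI 1 to 3 and 7.86, 7.91 and 8.29 on RP-I 1 to 3. The log2 fold change was -1.14 ± 0.22 (SE, adjusted p = 0.0813, or 0.0181 blocked). The second probe set, of the x_at kind, was designed on the same cDNA, and its suffix marks probes that can also match other transcripts. It read 8.15, 8.33 and 9.13 on RP-UI 1 to 3 and 7.15, 7.35 and 7.84 on RP-I 1 to 3, with a log2 fold change of -1.09 ± 0.31 (SE, adjusted p = 0.170, or 0.0193 blocked). In both, each RP-I array was below each RP-UI array, and the array numbered 3 was the highest of its group, so they count as 1 gene seen through overlapping probes.

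GRF1 (LOC4330903), the gibberellin-induced member, fell with the block but its groups overlapped. It read 9.52, 9.16 and 8.60 on RP-UI 1 to 3 and 8.74, 8.03 and 7.12 on RP-I 1 to 3, so that RP-I 1 lay above RP-UI 3. Within each number the RP-I array was lower, by a log2 difference of -0.78, -1.14 and -1.48 for numbers 1, 2 and 3. The fold change was -1.13 ± 0.44 on the log2 scale (SE, adjusted p = 0.316, or 0.0273 blocked), and leaving out single arrays moved it between -1.52 (without RP-I 1) and -0.71 (without RP-I 3).

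GRF5 (LOC4339928) read 8.59, 8.54 and 8.79 on RP-UI 1 to 3 and 7.61, 7.32 and 8.12 on RP-I 1 to 3. The RP-UI arrays were tight (mean 8.64 ± 0.13) and RP-I 3 was the RP-I array nearest to them. The log2 fold change was -0.96 ± 0.23 (SE, adjusted p = 0.119, or 0.0302 blocked), which is a 1.94-fold lower mean with an interval from 1.33 to 2.84.

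GRF4 (LOC4330436), also named GS2 and GL2 for its effect on grain size, had the most even difference between numbers. It read 10.07, 10.19 and 9.59 on RP-UI 1 to 3 and 9.29, 9.36 and 8.77 on RP-I 1 to 3, which gives -0.78, -0.83 and -0.81 for numbers 1, 2 and 3. The array numbered 3 was the lowest in both groups. The log2 fold change was -0.81 ± 0.24 (SE, adjusted p = 0.183, or 0.0253 blocked).

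GRF8 (LOC4350711), the planthopper-linked member, read 8.75, 9.00 and 8.42 on RP-UI 1 to 3 and 8.09, 7.63 and 8.33 on RP-I 1 to 3. Its groups did not overlap, but by a gap of only 0.09, since RP-UI 3 was low and RP-I 3 high in its group. The log2 fold change was -0.71 ± 0.24 (SE, adjusted p = 0.244, and 0.190 blocked), so GRF8 passed neither fit.

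GRF3 (LOC4336879) read 8.35, 8.26 and 8.92 on RP-UI 1 to 3 and 7.70, 7.26 and 8.48 on RP-I 1 to 3. Here number 3 was the highest in each group, and RP-I 3 lay above RP-UI 1 and RP-UI 2. The log2 fold change was -0.70 ± 0.35 (SE, adjusted p = 0.462, or 0.0611 blocked), with a 95% interval from -1.53 to 0.14 without the block and from -1.09 to -0.30 with it. Leaving out single arrays moved it from -1.03 (without RP-I 3) to -0.42 (without RP-I 2).

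GRF6 (LOC4333990), the panicle-branching member, had the smallest difference. It read 11.40, 11.48 and 10.70 on RP-UI 1 to 3 and 11.00, 10.59 and 10.94 on RP-I 1 to 3, and the groups overlapped. Its RP-I array was lower in numbers 1 and 2 (-0.40 and -0.89) and higher in number 3 (0.25), the only such case in the 27 comparisons of equal number over the 9 probe sets. The log2 fold change of -0.35 ± 0.25 (SE, adjusted p = 0.673, or 0.486 blocked) had an interval from -0.95 to 0.25, which includes no change as well as decreases of the size seen in GRF4 and GRF8. Leaving out single arrays moved it from -0.60 (without RP-UI 3) to -0.20 (without RP-UI 2).

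An exact two-sided permutation test per gene, which needs no model over other probe sets, gave p = 0.1 for GRF4, GRF5, GRF7, GRF8 and GRF10 (both probe sets averaged), p = 0.2 for GRF1 and p = 0.3 for GRF3 and GRF6. With 3 arrays against 3, 0.1 is the smallest p that it can give, so no single gene could pass this test.

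The members did not vary alike within a group. On RP-UI 3, GRF3, GRF5 and GRF10 were at their highest among the RP-UI arrays (4 of 9 probe sets), while GRF1, GRF4, GRF6, GRF7 and GRF8 were at their lowest there (5 of 9). On RP-I 3, the probe sets of GRF3, GRF5, GRF8 and GRF10 were the highest of their group (5 of 9), and those of GRF1 and GRF4 the lowest (2 of 9). The difference between the groups was largest in number 2 for 7 of the 9, with medians of -0.78, -1.14 and -0.81 for numbers 1, 2 and 3. Measured as the root mean square distance between centred log2 profiles over the 6 arrays, GRF3 and GRF5 were the closest genes (0.22) and GRF1 and GRF3 the farthest apart (0.91). In 8 of 9 probe sets the RP-I array was lower in all 3 numbers, against 22.0% of all probe sets.

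**Figure D3:**
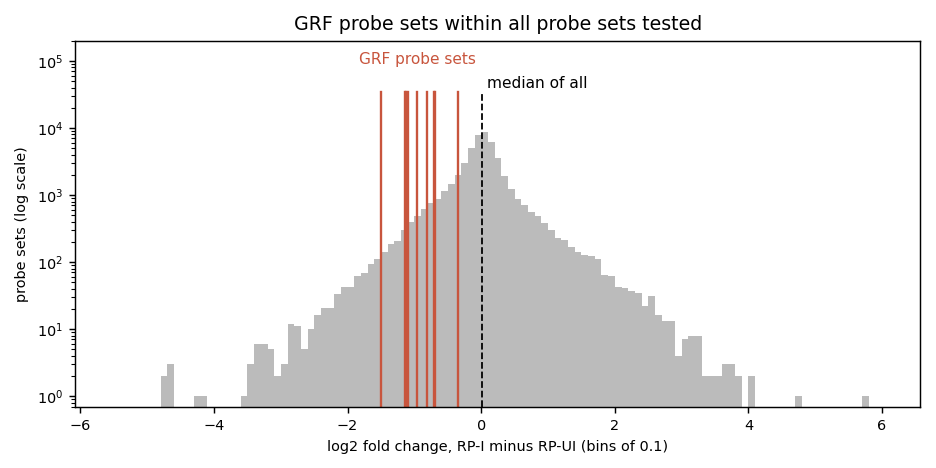
Log2 fold changes of all 51532 probe sets tested, in bins of 0.1 with a logarithmic count axis, with the 9 GRF probe sets as vertical lines and the median of all probe sets as a dashed line. All GRF lines stand left of the median of 0.01, between -1.50 and -0.35.

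The family members GRF11 and GRF12 were read for comparison. GRF11 (LOC4343178) read 11.63, 11.54 and 11.68 on RP-UI 1 to 3 and 11.34, 10.97 and 11.14 on RP-I 1 to 3, so the groups did not overlap. Its log2 fold change of -0.47 ± 0.15 (SE, adjusted p = 0.214, and 0.102 blocked) passed neither fit. GRF12 (LOC4336731) was the GRF gene without a lower mean, at 5.08, 5.19 and 5.20 on RP-UI 1 to 3 and 5.21, 5.23 and 5.34 on RP-I 1 to 3. These values lie below the array medians of 5.44 to 5.49, and whether the transcript was detected was not tested. The log2 fold change of GRF12 was 0.11 with an interval from -0.20 to 0.41 (adjusted p = 0.847, or 0.700 blocked).

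MKB3 (MAKIBA3, LOC4334010) is the GIF co-activator of the ANGUSTIFOLIA3 type, the partner through which GRF proteins switch on their targets, and was the 1 co-activator matched. It read 10.51, 10.26 and 10.51 on RP-UI 1 to 3 and 9.40, 8.35 and 8.84 on RP-I 1 to 3. The groups stood 0.86 apart, with every RP-I array below every RP-UI array. The mean went from 10.43 ± 0.14 to 8.86 ± 0.53 (SD, n = 3), a log2 fold change of -1.56 ± 0.27 (SE, limma adjusted p = 0.0699, or 0.0192 blocked), which is 2.96-fold lower with an interval from 1.87 to 4.68. The name GIF1 in the gene table belongs to the invertase gene CIN2, which is no GRF partner and was left out.

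**Figure D4:**
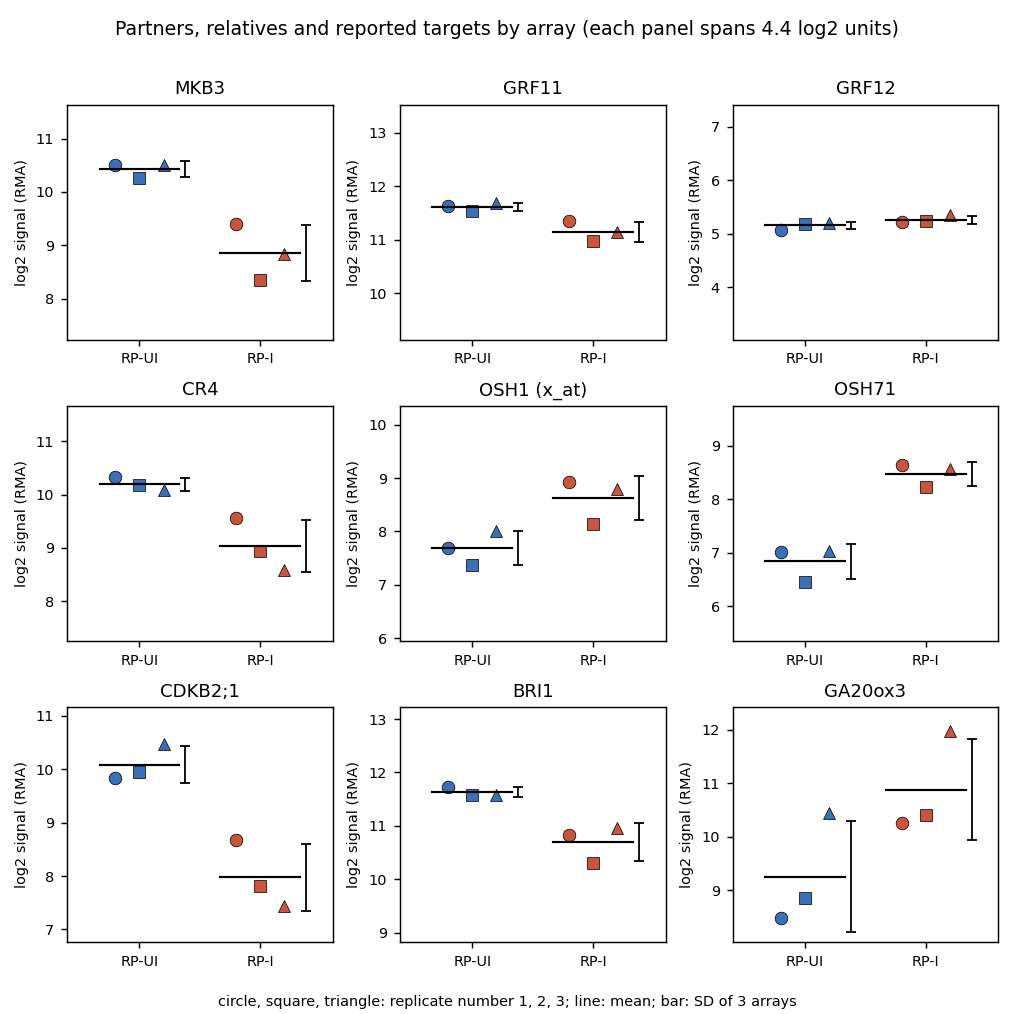
Log2 signal on the 6 arrays of the co-activator MKB3, of GRF11 and GRF12, and of genes from the target and hormone lists. Lines are means and bars the SD of 3 arrays, and each panel spans 4.4 log2 units. MKB3, GRF11, CR4, CDKB2;1 and BRI1 lie lower in RP-I without overlap. GRF12 (by a gap of only 0.005), OSH1 (its x_at probe set) and OSH71 lie higher without overlap.

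Genes that act on GRFs were read next. For SLR1, the DELLA repressor of gibberellin signalling that binds GRF4, the log2 fold change was 0.04 (adjusted p = 0.994), and from -0.28 to 0.42 without single arrays. For GSK2, a kinase of brassinosteroid signalling known to hold GRF4 back, it was -0.18 (adjusted p = 0.811). This list had 7 probe sets, with the 4 ARGONAUTE genes AGO1A to AGO1D that load microRNAs. Of them 0 passed limma's test in either fit, against 0.563% of all probe sets without the block and 8.5% with it. At an unadjusted p of 0.05 or under there were 0 as well, against 7.65% of all probe sets lower and 6.58% higher. The miR396 genes carry no matched probe set and are not analysed here.

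In the list of genes reported as GRF targets in the meristem and the flower, 1 homeobox gene passed the test without the block and was higher in RP-I. The list also takes in the KNOX genes OSH1, OSH3, OSH6 and OSH43, for which no such report is given here. OSH71, a KNOX gene that also bears the name Oskn2 and is the one reported to be repressed by GRF3 and GRF10, rose. It read 7.02, 6.45 and 7.03 on RP-UI 1 to 3 and 8.63, 8.22 and 8.57 on RP-I 1 to 3 (log2 fold change 1.64 ± 0.22 SE, limma adjusted p = 0.0476, or 0.0150 blocked). Every RP-I array was above every RP-UI array, though the call was lost without any 1 of the 6 arrays (adjusted p from 0.0615 to 0.228), with each array centred on its median (0.0510) and with a prior that follows signal (0.0681). OSH1, the marker KNOX gene of the shoot meristem, had 0.93 in 1 probe set (adjusted p = 0.172, or 0.0304 blocked) and 2.32 in the other (adjusted p = 0.205, or 0.0697 blocked), where RP-UI 2 alone stood at 3.58 and the difference without it was 1.44.

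CR4, a receptor kinase gene that GRF6 and GRF10 are reported to switch on, read 10.32, 10.17 and 10.08 on RP-UI 1 to 3 and 9.55, 8.95 and 8.59 on RP-I 1 to 3 (log2 fold change -1.16 ± 0.26 SE, adjusted p = 0.102, or 0.0272 blocked). JMJ706, a histone demethylase gene named beside CR4 as a target, had -0.69 and -0.51 in its 2 probe sets (adjusted p = 0.807 and 0.855), with RP-I 3 far below the other arrays at 8.38 and 7.93. The negative sign rested on that array, since without it the differences were 0.13 and 0.23. An auxin response factor gene with the names ARF2 and ETTIN2 had -1.14 in 1 probe set (adjusted p = 0.103, or 0.0170 blocked) and -0.77 in the other (adjusted p = 0.375, and 0.0510 blocked, or -0.43 without RP-I 3). A second gene named ARF2 had -0.23 and -0.14, and ARF7 had 0.41 (adjusted p = 0.318, and 0.176 blocked). Of the 17 probe sets of this list, from 11 genes, 1 was called higher and 0 lower, against 0.235% and 0.328% of all probe sets. With the block 2 were called higher and 2 lower, against 4.06% and 4.44%. The median log2 fold change was 0.05.

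A further list followed reported GRF4 targets in nitrogen and carbon metabolism and the cell cycle. CDKB2;1, a mitotic kinase gene, read 9.84, 9.95 and 10.47 on RP-UI 1 to 3 and 8.67, 7.81 and 7.44 on RP-I 1 to 3, a log2 fold change of -2.11 ± 0.35 (SE, adjusted p = 0.0634, or 0.0333 blocked). CDKA;2, a kinase gene of the cell cycle, had -1.07, -0.94 and -0.67 in its 3 probe sets (adjusted p = 0.180, 0.345 and 0.384, or 0.0293, 0.0440 and 0.163 blocked). The second of them became -0.61 without RP-I 3 and the third -0.34 without RP-I 2. Of the uptake genes, the ammonium transporter AMT1;1 had 1.09 in 1 probe set (adjusted p = 0.208, and 0.167 blocked) and 0.28 in the other, AMT1;2 had -0.07 and the nitrate transporter NRT2.3 had 0.58 (adjusted p = 0.190, and 0.121 blocked). Means of assimilation genes lay on both sides of 0. The plastid glutamine synthetase GS2 had -0.71 in 1 probe set (adjusted p = 0.285, or 0.0437 blocked) and -1.14 in the other (adjusted p = 0.390, and 0.102 blocked), which became -0.46 and -0.53 without RP-I 3. The cytosolic GS1;2 had 0.45 (adjusted p = 0.599, and 0.359 blocked), or from 0.28 to 0.77 without single arrays. The ferredoxin-dependent glutamate synthase Fd-GOGAT had -0.49, -0.47 and -0.40 in its 3 probe sets (lowest adjusted p = 0.185, and 0.109 blocked), of which the second and the third became -0.26 and -0.20 without RP-I 3. Of 18 probe sets from 11 genes, 0 passed limma's test, against 0.563% of all probe sets. At an unadjusted p of 0.05 or under 5 were lower and 3 higher, against 7.65% and 6.58%. Blocked, 4 were called lower and 0 higher, against 4.44% and 4.06%. The median was -0.29.

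Gibberellin, to which GRF1 responds, was followed through 9 probe sets of 7 genes of its synthesis and perception. The GA3ox and GA2ox genes, GA20ox1, GA20ox4 and GID2 had no matched probe set, so only part of the pathway was read. CPS1, the enzyme of its first committed step, read 5.61, 6.02 and 5.88 on RP-UI 1 to 3 and 7.53, 8.12 and 6.86 on RP-I 1 to 3 (log2 fold change 1.67 ± 0.32 SE, adjusted p = 0.0806, or 0.0262 blocked), and it passed without RP-I 3 (1.99, adjusted p = 0.0453). GA20ox3, which makes late gibberellin precursors, had 1.63 (adjusted p = 0.332, or 0.0150 blocked), with its groups overlapping since RP-UI 3 (10.44) lay above RP-I 1 and RP-I 2 (10.26 and 10.41), and with 1.08 left without RP-I 3. KO2, an oxidase of the same pathway, had 0.93 and 0.77 in its 2 probe sets (adjusted p = 0.201 and 0.320, or 0.0209 and 0.0337 blocked). Both are of the x_at kind, whose probes can also match other transcripts, and the gene entry also carries names such as OsKO1, OsKOL2 and OsKOS3. In this list 0 passed limma's test, against 0.563% of all probe sets. At an unadjusted p of 0.05 or under 4 were higher and 0 lower, against 6.58% and 7.65%. Blocked, 5 were called higher and 0 lower, against 4.06% and 4.44%. The median was 0.77, and 7 of 9 had a higher mean.

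Brassinosteroid genes were mixed, with a median of -0.04 over 10 of 11 probe sets that passed the filter. The receptor gene BRI1 read 11.73, 11.58 and 11.57 on RP-UI 1 to 3 and 10.84, 10.30 and 10.96 on RP-I 1 to 3, a log2 fold change of -0.93 ± 0.20 (SE, adjusted p = 0.0985, or 0.0384 blocked). The transcription factor gene BZR1 had -0.65 (adjusted p = 0.149, and 0.0915 blocked) and BU1, a helix-loop-helix gene that promotes leaf bending, had 1.29 (adjusted p = 0.259, and 0.0627 blocked), or 0.76 without RP-I 3. None passed without the block, against 0.563% of all probe sets, and 1 of 10 was called with it, against 8.5%. At an unadjusted p of 0.05 or under 2 were lower and 1 higher, against 7.65% and 6.58%.

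**Figure D5:**
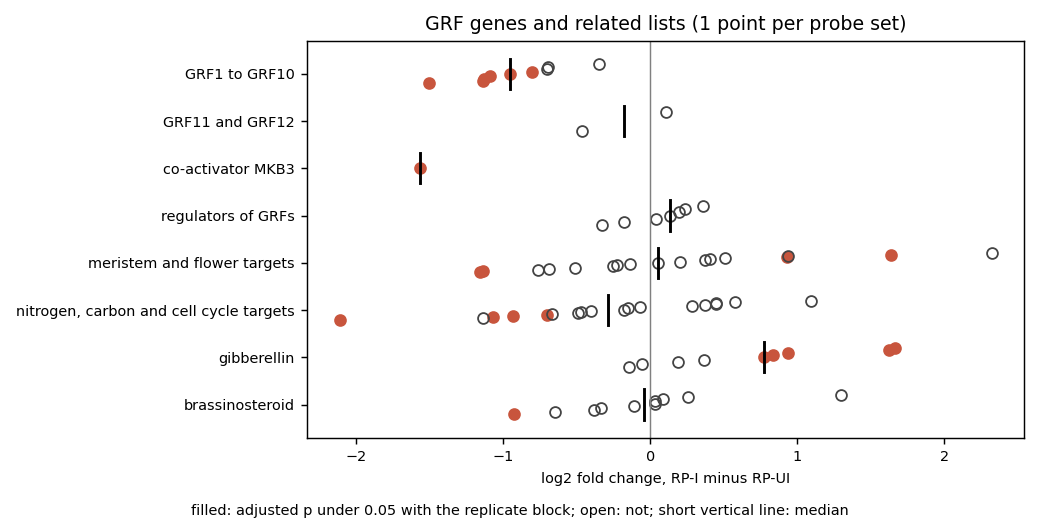
Log2 fold change of each probe set in the GRF list and the related lists, 1 point per probe set and a short line at the median. Filled points have an adjusted p under 0.05 when blocked on the replicate number, as have 4.44% of all probe sets lower and 4.06% higher. This holds for 6 of 9 GRF probe sets, all lower, and for 5 of 9 gibberellin probe sets, all higher. It also holds for MKB3 (lower), 2 higher and 2 lower of 17 in the meristem and flower list, 4 of 18 in the nitrogen and carbon list (lower) and 1 of 10 for brassinosteroid (lower).

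The mean GRF profile, averaged over the 8 genes, deviated by 0.49, 0.52 and 0.36 in RP-UI 1, 2 and 3 and by -0.33, -0.68 and -0.36 in RP-I 1, 2 and 3. Of named genes outside the family, the 5 with the smallest root mean square distance to it over the 6 arrays were KIN5A (0.110), BRI1 (0.113), KIN14C (0.113), Ran1 (0.123) and ARF12 (0.125), where the median over all probe sets was 0.529. KIN5A and KIN14C are kinesin motor genes, Ran1 encodes a small GTPase of nuclear transport, and ARF12 encodes an auxin response factor. Their log2 fold changes ran from -0.93 for BRI1 and KIN5A to -0.75 for ARF12. The GRF probe sets themselves lay between 0.194 and 0.543 from their mean.

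Cell type markers were read as means of a list on each array. These means did not overlap between the groups for shoot meristem, vascular and green tissue, and overlapped for root. Of all marker probe sets only OSH71 was called without the block, where 0.563% of all probe sets were called. With the block OSH71, 1 probe set of OSH1 (adjusted p = 0.0304) and SUT1 (1.29, adjusted p = 0.0164) were called higher. Of CAB2R 1 probe set was called lower (adjusted p = 0.0485), and no CESA probe set was called. Over all probe sets the blocked shares were 4.06% higher and 4.44% lower. The shoot meristem list had 7 probe sets of OSH1, OSH71, OSH6, OSH43 and LAX1, all above the filter. It averaged from 6.17 to 6.83 on the RP-UI arrays and from 7.08 to 7.60 on the RP-I arrays. The lowest, 6.17, is that of RP-UI 2, where 1 OSH1 probe set stood at 3.58. Higher in mean were 6 of 7, all of OSH genes. LAX1 was lower, with a log2 fold change of -0.75, or -0.15 without RP-I 3. OSH1, OSH71, OSH6 and OSH43 are also in the meristem and flower list above. The list of vascular and phloem genes averaged from 9.20 to 9.60 in RP-UI and from 8.24 to 9.05 in RP-I (8.24 on RP-I 3 and 8.94 on RP-I 1), with 4 of 5 lower, the cell wall genes CESA4, CESA7 and CESA9 among them and the sucrose carrier SUT1 higher. Green tissue (6 probe sets of CAB2R and RBCS) averaged from 9.22 to 9.66 and from 8.99 to 9.11. The 4 of RBCS had log2 fold changes of 0.003, 0.01, 0.13 and 0.41 (lowest limma adjusted p = 0.279). The 2 of CAB2R were lower, at -1.32 and -1.59. Root markers averaged from 4.68 to 4.95 and from 4.73 to 5.16, with PHT1;6 below the filter. The part of these shifts in the GRF result was not tested.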

How the data were processed

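Signals of the Affymetrix Rice Genome Array were made by the authors with RMA (background correction, quantile normalization and summary per probe set), and deposited as log2 values for 57381 probe sets. GeneSpring stands in the methods, and Affymetrix Expression Console with RMA in the submitters' processing notes. For Expression Console no version is given in the sources used here. Probe-level and detection data were not used here, and sources differ on whether tissue or RNA of the time points was pooled.

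The 123 control probe sets were left out. The filter kept the 51532 probe sets with a mean signal, over all 6 arrays, at or above the 10th percentile. RP-I was compared with RP-UI with limma 3.58.1 in R 4.3.3 (lmFit, eBayes), with Benjamini-Hochberg adjustment over all of them. An adjusted p under 0.05 is a call, ± is the SD beside a mean and the moderated standard error (SE) beside a fold change, and intervals are 95%. The fit was tested on simulated data with known changes. Permutation tests used scipy 1.17.1, and figures matplotlib 3.10.9.

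Probe sets were named through the platform annotation and a RefSeq gene table (22436 name 1 gene, 95 several, 34850 none). Members and gene lists were chosen with earlier results of these data known. Lists were matched by symbol or synonym, and 4 matches to an unrelated gene of the same name were removed. Named genes are all GRF, GRF11, GRF12 and co-activator probe sets, in each other list up to 6 genes with the largest change that reach an unadjusted p of 0.05, and the 5 nearest profiles. JMJ706, GSK2, SLR1, AMT1;2, GS1;2 and the markers were named besides, after their values were seen.

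Replicate numbers count as pairs where 2 arrays of 1 number correlate above 0.1 in their deviations from the group means, for every number, and they did so (0.521, 0.308 and 0.624). Numbers 1 and 2 also correlated across (0.295 and 0.244). The labels number biological replicates, each 1 tray, and do not say that a number marks a shared day or batch. Since deviations sum to 0 in a group, something shared by the arrays numbered 3 alone would raise all 3 values. Blocked values stand beside the results. The number of arrays limits the precision. Without the block limma's p-values measure the spread between trays of a group, and with it the spread of the differences within numbers. In both fits the variance of a probe set is drawn towards a prior over all probe sets. Array correlations ran from 0.919 to 0.990. Alternatives covered the block, the filter, the scaling, the prior, the threshold and leaving out each array.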

Additional observations from a re-analysis of the deposited data

How the results depend on the processing

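All 108 refits of a GRF probe set (12 alternatives for each of 9) kept the lower mean in RP-I. The block, the filters and the prior leave the log2 fold change of a probe set as it is. Only the scaling and the leaving out of arrays could therefore move its sign. The count of GRF probe sets called was 0 without the block and 6 in the fit with the replicate block. It was 1 (GRF7) with each array held to its own 10th percentile (adjusted p = 0.0493) or after quantile normalization (0.0430), and 4 at the methods' threshold. When any single array was left out it was 0, and the lowest adjusted p of a GRF probe set ran from 0.0580 to 0.228. In those refits 5 to 8 of 9 had an unadjusted p of 0.05 or under, against 5011 to 7977 of all 51532 probe sets in either direction. Over the array the 290 calls became 329 (191 lower) of 48881 probe sets with each array held to its own 10th percentile. After quantile normalization they became 402 (209 lower). They became 4379 with the replicate block, 126 with each array centred on its median, 87 with a prior that follows signal and 2865 at the methods' threshold. When single arrays were left out there were 0 to 280 (280 without RP-I 3, and 0 without any other). The co-activator, regulator, target and hormone lists had 1, 7, 17, 18, 9 and 10 probe sets tested, and GRF11 and GRF12 had 2. In these the 1 call, against 0.563% of all probe sets, became 15 with the block. Of the 15, 7 were higher and 8 lower, against 4.06% and 4.44% of all probe sets. At the methods' threshold 6 were higher and 5 lower (11), against 2.66% and 2.9%. The count was 0 with centred arrays or the prior that follows signal, and 0 to 1 when single arrays were left out. The 1 call without RP-I 3 was CPS1 in place of OSH71. Genes whose groups did not overlap, all lower in RP-I, numbered 5 of 8, against 9.73% of all probe sets. They numbered 5 to 7 without single arrays. Groups separate more easily with an array fewer, and the share of all probe sets was not counted there.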
